A study of Rattus norvegicus with 39 samples.

Results

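The 10 mature microRNAs (miRNAs) described here are both arms of 5 rat hairpins, miR-463, miR-742, miR-743a, miR-743b and miR-871, a group known in rodents as restricted to the testis. They were chosen by name from the deposited table of mature miRNAs, in which they are 10 of 405 entries, and all 10 passed the filter on low counts that 105 entries passed. The libraries came from cauda epididymal sperm of wild-type adult male Fischer rats aged 11 to 12 weeks. The agent was EGME (ethylene glycol monomethyl ether), an industrial solvent known to harm spermatogenesis, given by gavage for 5 days, and sperm was collected 5 weeks later. The groups EGME0 (water vehicle), EGME50, EGME60 and EGME75 received 0, 50, 60 and 75 mg/kg/d and held 10, 10, 9 and 10 males, with 1 male per library.

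A miRNA gene is transcribed as a hairpin that is cut into a duplex of a 5p and a 3p arm. One arm is usually kept by an Argonaute protein, which then uses the seed near the 5′ end of the RNA to find target messages. The miRNAs described here lie in a fast-evolving X-linked cluster that is known for expression in male germ cells of rodents.

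The mature sequences show which arms can be told apart and which share a seed. They are from RefSeq (GRCr8), in which all 10 matched by name on the minus strand of chromosome X, with the prefix rno for rat, and capitals mark the seed, bases 2 to 8.
rno-miR-463-5p: uACCUAAUuuguuguccauca
rno-miR-742-5p: uACUCACAugguugcuaauca
rno-miR-743a-5p: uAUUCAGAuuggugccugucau
rno-miR-743b-5p: uGUUCAGAcugguguccaucau
rno-miR-871-5p: uAUUCAGAuuggugccggucacau
rno-miR-463-3p: uGAUAGACgccaauuuggguag
rno-miR-742-3p: gAAAGCCAccauguuggguaaa
rno-miR-743a-3p: gAAAGACGccaaacuggguaga
rno-miR-743b-3p: gAAAGACAccauacugaauaga
rno-miR-871-3p: uGACUGGCaccauacuggauaa

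miR-743a-5p and miR-871-5p carried the same seed and the same first 16 bases, and 20 of 22 compared positions were identical. A read that ends within those 16 bases fits both, and the treatment of such reads is not given in the sources used here. miR-743a-3p and miR-743b-3p shared bases 2 to 7 and 18 of 22 positions. The other seeds each occurred in 1 arm only. The 2 arms with a shared seed are described one by one, and no test compared them with each other.

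The hairpins of the other 2 genes with a called arm show how the arms lie, with the mature arms in capitals.
miR-743b: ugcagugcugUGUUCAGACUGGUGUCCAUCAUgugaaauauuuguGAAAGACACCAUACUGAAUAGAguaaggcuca
miR-871: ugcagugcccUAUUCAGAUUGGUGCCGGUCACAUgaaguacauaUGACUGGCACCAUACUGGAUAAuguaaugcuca
In GRCr8 the genes of miR-743a, miR-743b and miR-742 follow each other directly among the miRNA genes of the chromosome. The genes of miR-463 and miR-871 lie further along the same run, among those of miR-883, miR-471, miR-741, miR-880, miR-878 and miR-881.

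Depth, taken here as miRNA counts per library, was lowest at EGME75 and bears on every value below. The miRNA counts averaged 0.178% of the counts of all 4 deposited tables at EGME0. This share was 0.169% at EGME50, 0.118% at EGME60 and 0.0554% at EGME75. Counts of all 4 tables ran from 714467 to 14442713 per library at EGME0 and from 244869 to 17106499 at EGME75. Control libraries had 1098 to 38208 miRNA counts each, EGME50 libraries 1681 to 33951, EGME60 libraries 1990 to 37020 and EGME75 libraries 139 to 8633, of which 3 were under 1000. A single count was worth a median of 83.6 CPM (counts scaled to a library of 1000000, with sizes adjusted by the trimmed mean of M-values) at EGME0 and 300 at EGME75. The table held 17 values of 1 against 1088 values of 2, and none of the 390 values of the 10 arms was 1, so a 0 may stand for a low number of reads, and no upper limit is given for a 0. The marker miRNAs also moved with dose. The germ cell list (6 entries of miR-34b, miR-34c and miR-449) summed to 19.8 to 33.1% of the miRNA counts at EGME0. At EGME75 it summed to 6.47 to 22.1%, and 4 of its 5 tested members fell. Its untested entry, miR-449c-5p, was at 0 throughout EGME0, and no entry was at 0 throughout EGME75. The blood list ranged from 0 to 0.343% at EGME0 and from 0.248 to 4.82% at EGME75, with 3 of 3 tested members risen and miR-144-3p at 0 in both groups. The epithelial list ranged from 0.625 to 1.29% and from 1.81 to 4.77% in these groups, with 3 of 4 tested members risen and none at 0 in a whole group. The muscle list ranged from 0.954 to 3.27% and from 1.12 to 9.80%, with 1 of 2 risen and miR-1-3p at 0 throughout EGME75. Beside these counts, 42.9% of all 105 tested miRNAs passed the same test at EGME75, 23 higher and 22 lower. The part of depth and of these lists in the results was not tested beyond the alternatives given, and fewer cells of a type and less RNA per cell cannot be told apart in such samples.

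The summed level of the 10 arms depended on the scale. As a share of miRNA counts they summed to 2.32% ± 0.544 of the counts in controls (SD, n = 10), 2.22% ± 0.561 in the EGME50 group (n = 10), 2.38% ± 0.848 after 60 mg/kg/d (n = 9) and 2.38% ± 0.819 after 75 mg/kg/d (n = 10). These means differed by less than 1 SD. In CPM with adjusted sizes the sum was 28914 ± 6861 in controls, 23715 ± 8819 and 23385 ± 8037 at the middle doses and 19067 ± 7273 at EGME75, a difference from control beyond 1 SD. No test was made of the sum.

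In control sperm miR-743a-3p was the most abundant of the arms. Its level was 10404 ± 3459 CPM (mean ± SD, n = 10), followed by miR-463-5p at 5393 ± 1509, miR-743b-5p at 3733 ± 1013 and miR-743b-3p at 3091 ± 1910. The steps between the first 3 were larger than the SDs of the lower arm, and the step from miR-743b-5p to miR-743b-3p was within both SDs. miR-743a-5p at 1574 ± 1119 and miR-463-3p at 1549 ± 495 did not differ beyond their spread. Below them came miR-742-5p at 1025 ± 812, miR-871-5p at 955 ± 688 and miR-742-3p at 880 ± 615, which also lay within each other's spread. miR-871-3p was the lowest at 309 ± 265 CPM. Divided by the length of each arm (21 to 24 bases), the order was the same but for miR-871-5p and miR-742-3p, which changed places.

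At EGME75 the order differed at both ends of the lower range. miR-743a-3p stayed first at 7296 ± 4186 CPM and miR-463-5p stayed next at 3179 ± 3765 (n = 10). miR-743a-5p moved from rank 5 to rank 10 with 174 ± 368 CPM. miR-871-3p moved from rank 10 to rank 6 with 1219 ± 915 CPM. Per base these ranks were the same.

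**Figure D1:**
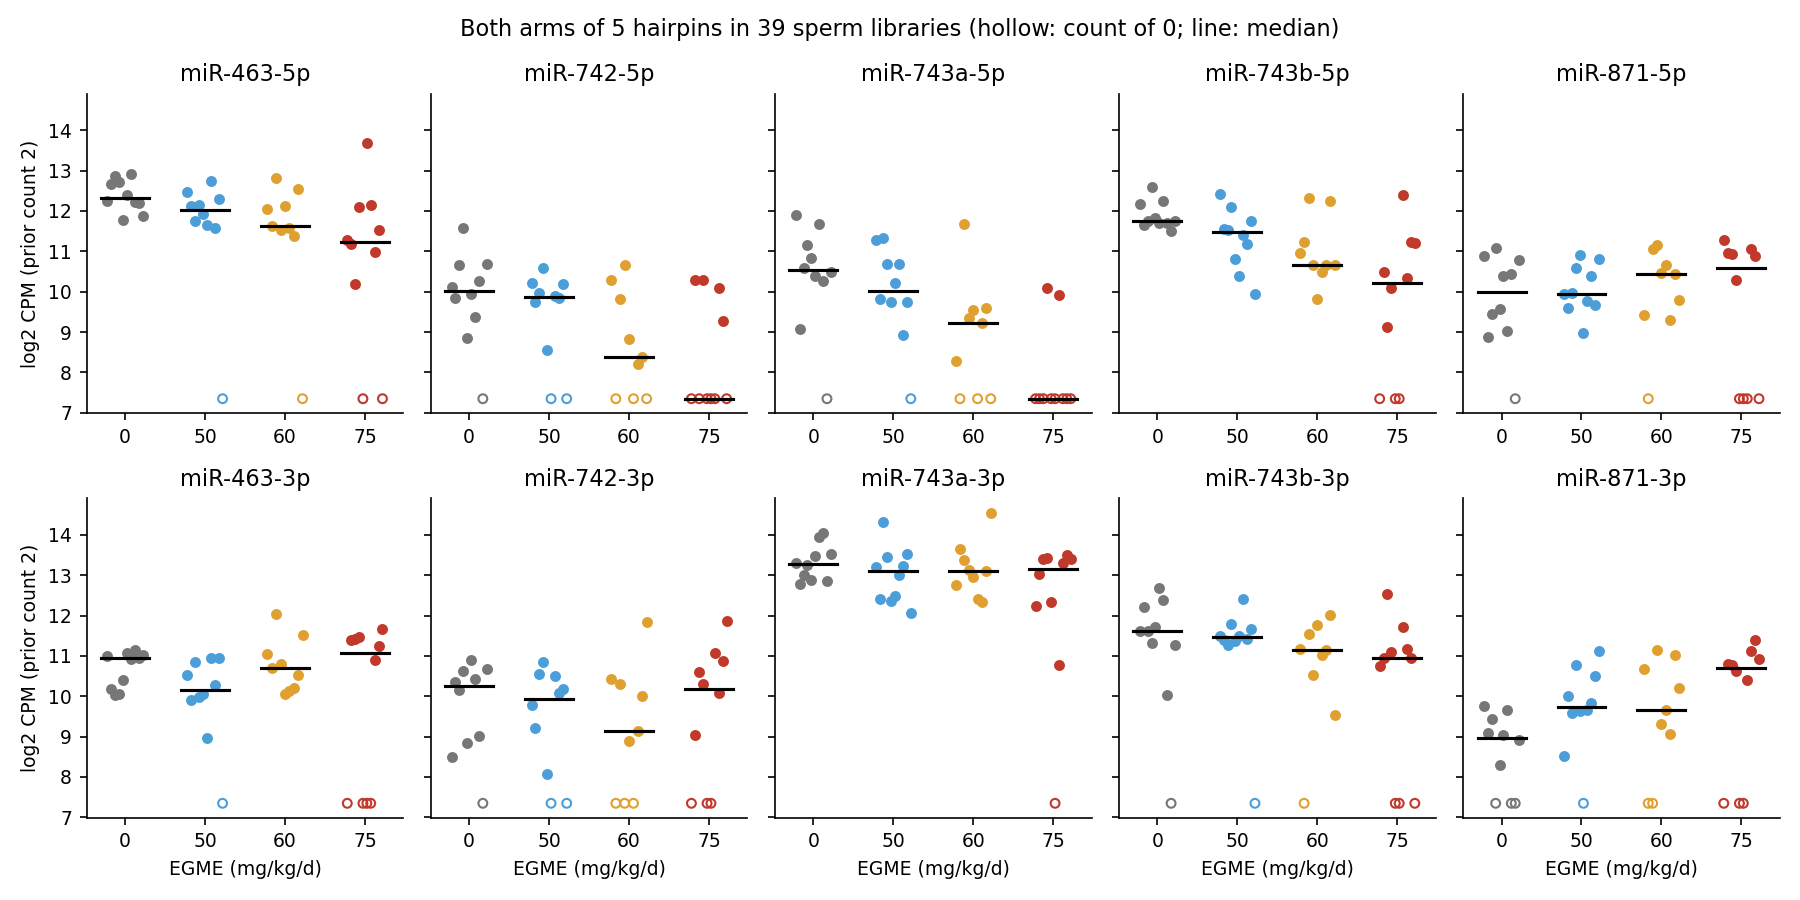
Level of each arm in each of the 39 libraries by EGME dose, as log2 CPM with a prior count of 2; points are males, hollow points are counts of 0 and lines are group medians. At EGME75 miR-743a-5p has 8 hollow points of 10, while 7 of the 10 points of miR-871-3p lie above the control median.

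Each dose was compared with EGME0 in 1 edgeR quasi-likelihood fit over all 39 libraries, with p-values adjusted by Benjamini-Hochberg over the 105 miRNAs tested and a threshold of 0.05. The comparisons share the 10 control libraries. At EGME75, 3 of the 10 arms were called: miR-743a-5p and miR-743b-5p fell and miR-871-3p rose. Of all 105 miRNAs 42.9% were called in this comparison (23 miRNAs higher and 22 lower), so the share among the 10 arms was not above the background. Their median log2 fold change was -0.50, beside -0.10 over all 105.

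At the lower doses no arm passed the adjusted edgeR threshold. At EGME50 1 of 10 arms had an unadjusted edgeR p under 0.05, beside 19 of all 105 miRNAs. DESeq2 and limma-voom called 0 arms, beside 3 and 0 of all 105. The adjusted edgeR test called 2.86% of all miRNAs. At EGME60 2 of 10 had an unadjusted edgeR p under 0.05, beside 45 of all 105. DESeq2 called 1 arm (miR-743a-5p), beside 41 of all 105. With limma-voom 3 arms were called (miR-742-5p, miR-743a-5p and miR-743b-5p, all lower), beside 39 of all 105. In 4 other edgeR settings miR-871-3p was called higher, and the adjusted edgeR test of the main fit called 31.4% of all miRNAs. The arms' median log2 fold changes were -0.35 and -0.35 at these doses, beside -0.01 and 0.11 over all miRNAs. A slope fitted on dose called the same 3 arms as EGME75 in the same directions, in a test where 45.7% of all miRNAs were called.

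**Figure D2:**
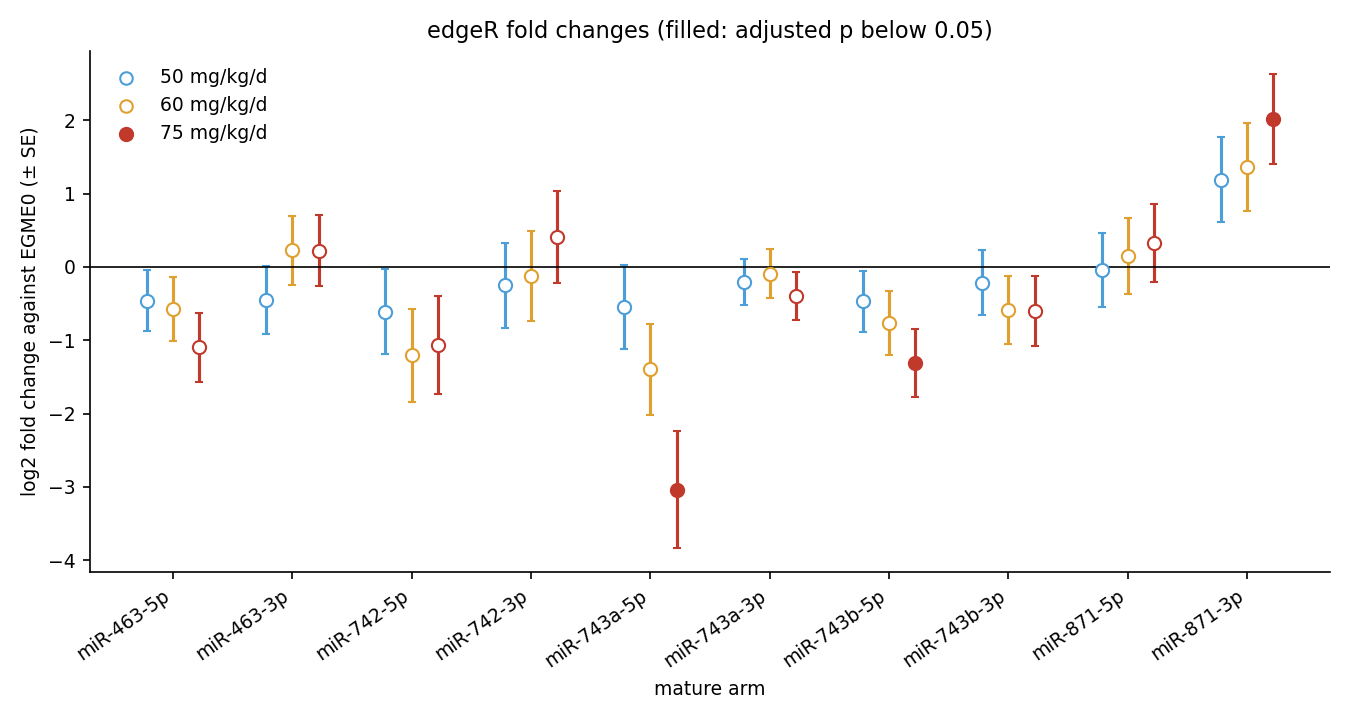
log2 fold change of each arm against EGME0 at 50, 60 and 75 mg/kg/d with its standard error, from the edgeR fit; filled points have an adjusted p under 0.05. Filled points are miR-743a-5p at -3.04, miR-743b-5p at -1.31 and miR-871-3p at 2.02, each at 75 mg/kg/d.

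miR-743a-5p, the less abundant arm of its hairpin, showed the largest change among the 10. Its counts at EGME0 were 0 at the lowest, 17 at the median and 73 at the highest, with 1 of 10 libraries at 0. At EGME50 they ran from 0 through a median of 17 to 42, again with 1 library of 10 at 0. At EGME60 the lowest was 0, the median 4 and the highest 25, with 3 of 9 libraries at 0. At EGME75 8 of 10 libraries held 0 counts, and the other two held 6 (replicate 16) and 2 (replicate 31). Pooled over each group, the arm had 239, 173, 74 and 8 counts from EGME0 to EGME75. All 10 EGME75 libraries lay below the control median, although the ranges overlapped: the EGME75 libraries with counts stood at 938 and 799 CPM, above control replicate 2 at 380 CPM and control replicate 33 at 0.

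The log2 fold change of miR-743a-5p was -0.55 (SE 0.57) at EGME50, -1.40 (SE 0.62, edgeR adjusted p = 0.0708) at EGME60 and -3.04 (SE 0.80, adjusted p = 0.0015) at EGME75. The last was the second lowest of all 105 miRNAs. Between doses, EGME75 lay below EGME50 by a log2 fold change of -2.49 (adjusted p = 0.0203), in a contrast that called 15.2% of all miRNAs. That call was lost without EGME50 replicate 3 or without EGME75 replicate 8, 15, 32 or 39, when the adjusted p rose to at most 0.0729. It was also lost with miRNA totals (adjusted p = 0.0559), the depth covariate (adjusted p = 0.106) and libraries of at least 1000 counts (adjusted p = 0.060). EGME75 did not differ from EGME60 by the test (-1.64, adjusted p = 0.625), a contrast in which edgeR called 0.0% of all miRNAs. Of the 10 arms 0 had an unadjusted edgeR p under 0.05, beside 8 of all 105. DESeq2 and limma-voom called 0 arms and 0 of all 105.

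The counts of miR-743a-5p are given here beside depth and beside its partner arm. The 2 deepest EGME75 libraries, with 8000 and 8633 miRNA counts, had 0 counts of miR-743a-5p beside 97 and 126 of miR-743a-3p. The control library nearest to them in depth, with 7575 miRNA counts, had 6 of the 5p arm beside 95 of the 3p arm. The next deeper controls, of 11051, 11105 and 12549 counts, had 21, 12 and 13 beside 95, 109 and 124, and a control of 18847 counts had 5 beside 90. Restricted to libraries of at least 4000 miRNA counts, a minimum set after the totals had been seen, the log2 fold change at EGME75 was -3.30 (adjusted p = 0.00496). With the log10 miRNA total as a covariate it was -2.63 (adjusted p = 0.0257), but the slope on dose was then not called (-1.59, adjusted p = 0.0631, against an adjusted p of 0.00615 without it).

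**Figure D3:**
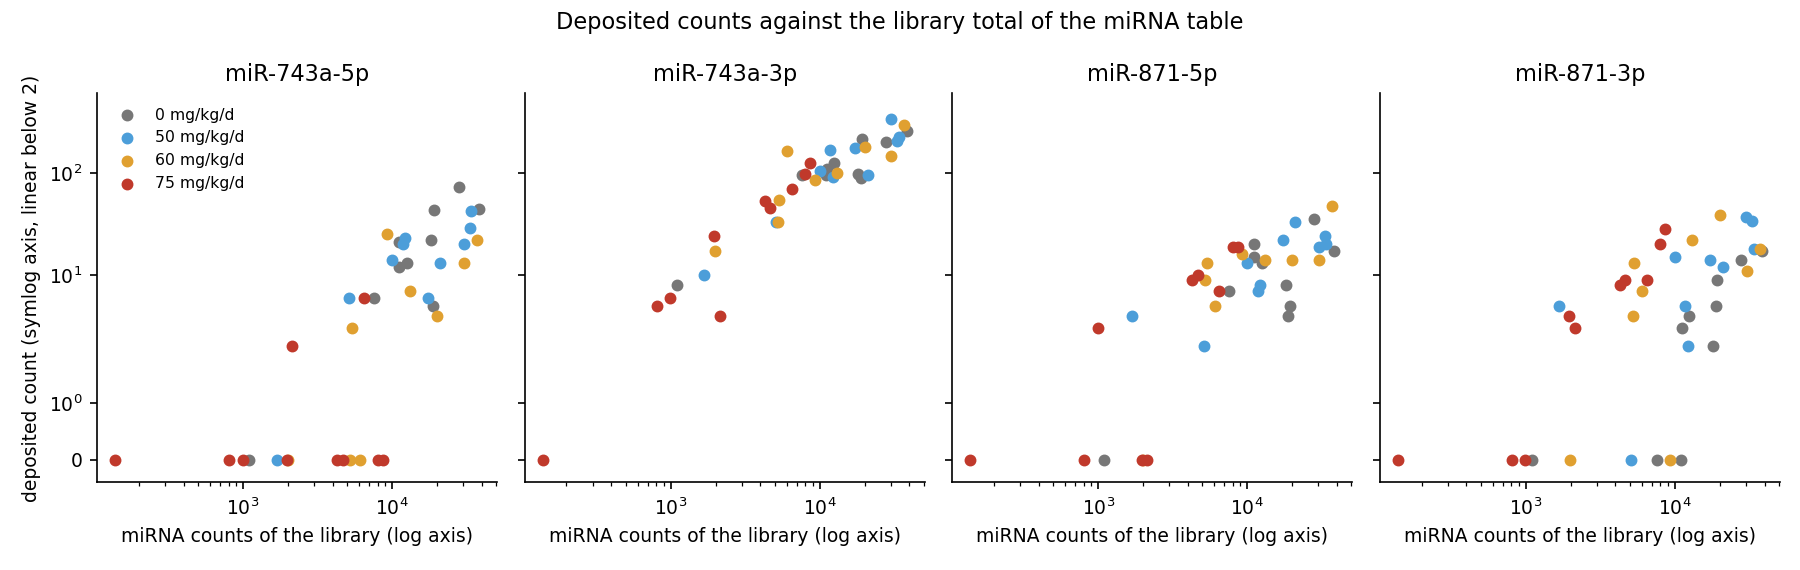
Deposited counts of both arms of miR-743a and miR-871 against the miRNA total of each library, on a log axis across and an axis that is linear below 2 and logarithmic above; each point is 1 male, coloured by dose. EGME75 libraries of 8000 and 8633 counts lie at 0 for miR-743a-5p and at 97 and 126 for miR-743a-3p.

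miR-871-3p rose, and its seed is shared with no other arm here. Its counts at EGME0 were 0 at the lowest, 3.5 at the median and 17 at the highest. In CPM the control libraries ran from 0 through a median of 341 to 697. At EGME50 the CPM values had a median of 697 and a maximum of 2054, and at EGME60 a median of 642 and a maximum of 2124. At EGME75 they ran from 0 through a median of 1502 to 2533, and the 3 libraries at 0 were the 3 with under 1000 miRNA counts. The other 7 lay above the control median, as did 8 of 10 at EGME50 and 7 of 9 at EGME60. The log2 fold changes were 1.19 (SE 0.58, edgeR adjusted p = 0.274), 1.36 (SE 0.60, adjusted p = 0.0699) and 2.02 (SE 0.61, adjusted p = 0.0055) from EGME50 to EGME75. At EGME75 it was at place 96 of 105 counted from the lowest.

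The rise of miR-871-3p is a rise relative to the other miRNAs. With the summed counts of all 4 deposited tables as the library size, in place of scaling within the miRNA table, its log2 fold change at EGME75 was 1.07 (adjusted p = 0.302). The median over the 105 miRNAs then went from -0.10 to -1.13, and relative to the median miR-871-3p stood at 2.11 and 2.20 under the 2 scalings.

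miR-743b-5p, whose 2 arms were close in level in control sperm, fell by less than miR-743a-5p. Its CPM values ran from 2721 through a median of 3298 to 6023 at EGME0 and from 821 through 2671 to 5287 at EGME50. At EGME60 they ran from 737 through 1471 to 4945, and at EGME75 from 0 through 1034 to 5194. Of the 10 EGME75 libraries 9 lay below the control median and 3 were at 0, and the ranges overlapped through 1 high library. The log2 fold changes were -0.47 (SE 0.42), -0.76 (SE 0.44, edgeR adjusted p = 0.161) and -1.31 (SE 0.46, adjusted p = 0.0157). The call at EGME75 was lost with miRNA totals as the scaling (-0.74, adjusted p = 0.180), with the depth covariate (-1.13, adjusted p = 0.113), without the 3 libraries of under 1000 counts (-0.93, adjusted p = 0.087) and without EGME75 replicate 15 (adjusted p = 0.0501).

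The remaining 5p arms were not called at EGME75 in the edgeR fit with trimmed-mean scaling, though some were with other settings. miR-463-5p, the major arm of its hairpin in control sperm, had medians of 4937, 3994, 2981 and 2262 CPM in order of dose. Its log2 fold change at EGME75 was -1.09 (SE 0.47, edgeR adjusted p = 0.0511), with 9 of 10 libraries below the control median and 1, a library of 139 miRNA counts, above all controls at 13001 CPM. It was called lower in 5 of 15 other settings, among them DESeq2 (-1.08, adjusted p = 0.0318) and limma-voom (-1.37, adjusted p = 0.0352), and in 7 of 39 edgeR fits without 1 library. miR-742-5p had medians of 883.02, 768, 173 and 0 CPM in order of dose, with 6 of 10 EGME75 libraries at 0. Its log2 fold change was -1.21 (SE 0.63, adjusted p = 0.132) at EGME60 and -1.06 (SE 0.67, adjusted p = 0.188) at EGME75. With 4-table sizes the EGME75 value was -2.16 (adjusted p = 0.0347), where the median over all 105 miRNAs was -1.13. miR-871-5p, which shares its seed with miR-743a-5p, had medians of 892, 830, 1214 and 1406 CPM and a log2 fold change of 0.33 (SE 0.53, adjusted p = 0.608) at EGME75.

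In the edgeR fit with trimmed-mean scaling no 3p arm other than miR-871-3p was called at EGME75. miR-743a-3p had medians of 9719, 8663, 8672 and 9067 CPM in order of dose, and its log2 fold change at EGME75 was -0.39 with a 95% interval of -1.03 to 0.25. With miRNA totals as the scaling that value was 0.19. miR-743b-3p had a log2 fold change of -0.60 (SE 0.48), which became 0.47 with the depth covariate. With the summed counts of 4 tables as the library size it was -1.86 (adjusted p = 0.0356), a call. The median over all 105 miRNAs with those sizes was -1.13. miR-463-3p and miR-742-3p had 0.22 (SE 0.48) and 0.41 (SE 0.63), which became -0.76 and -0.49 with those 4-table sizes.

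Within each hairpin the 5p arm had the lower fold change. At EGME75 the log2 fold change of the 5p arm minus that of the 3p arm was -2.65 for miR-743a, -1.69 for miR-871, -1.47 for miR-742, -1.31 for miR-463 and -0.71 for miR-743b. The difference was negative in 5 of 5 hairpins at EGME50 and EGME60 too, where it ranged from -1.23 to -0.01 and from -1.31 to -0.17. These are differences of fitted values and moved with the setting: at EGME75 they ranged from -3.31 to -2.004 for miR-743a and from -1.60 to -0.37 for miR-743b. At EGME75 and EGME60 the 5 hairpins stayed negative in each of the 13 to 15 other settings that tested both arms. Of these settings 1, a single row per set of identical rows, repeated the main fit. At EGME50 miR-463 stayed negative in 10 of 15 and miR-743a in 14 of 15. The 3 other hairpins with both arms tested, miR-34b, miR-34c and miR-106b, had the opposite sign at each dose, with 1.31, 1.40 and 1.68 at EGME75. No test of the member hairpins against these 3 was made, the 3 were not recomputed under other settings, and the doses share their controls.

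**Figure D4:**
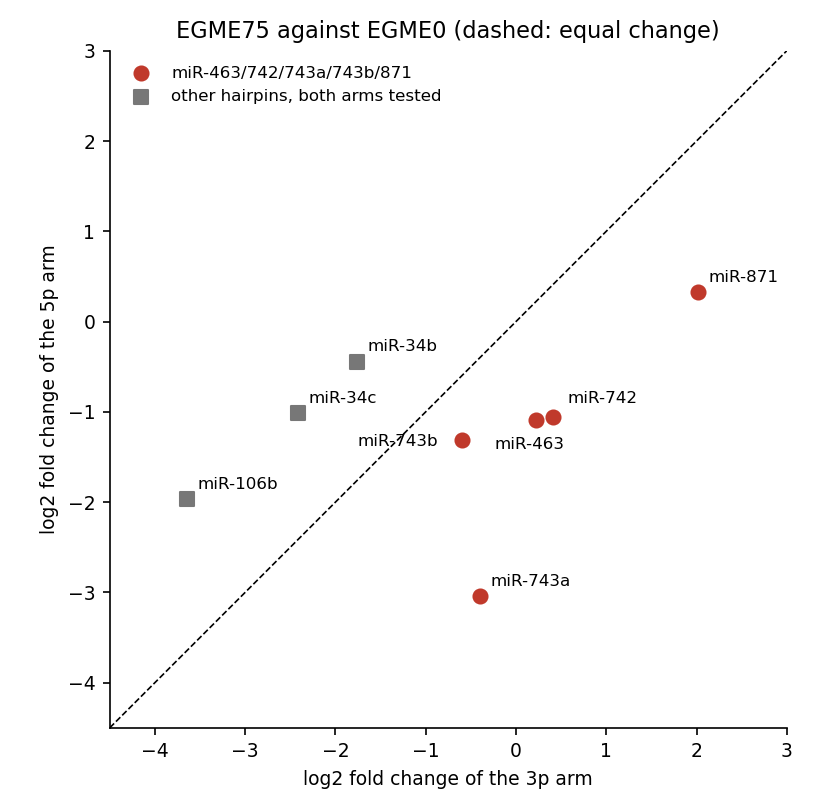
log2 fold change of the 5p arm against that of the 3p arm at EGME75 against EGME0, for the 8 hairpins with both arms tested; the dashed line marks equal change. The 5 circles of the X-linked hairpins lie below the line and the 3 squares (miR-34b, miR-34c and miR-106b) lie above it.

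The share of the 5p arm among the reads of both arms was tested per library, over libraries with at least 10 such reads, by 2-sided permutation tests adjusted over all 23 tests. For miR-743a the share was 13.9% ± 6.94 in controls (SD, n = 9), 10.7% ± 6.11 after 50 mg/kg/d (n = 10), 5.75% ± 7.14 after 60 (n = 9) and 1.32% ± 3.22 after 75 (n = 6). Of the 6 EGME75 libraries 5 were at 0% and 1 at 7.89%, and the controls ran from 5.26 to 26.8%. The fall of 12.6 percentage points at EGME75 passed the test (exact permutation, adjusted p = 0.0276), the 1 call among 7 hairpins tested at that dose (14.3%). At a minimum of 1 read the difference was -7.93 points and the call was lost (exact permutation, adjusted p = 0.282). At that minimum 3 more EGME75 libraries enter, 1 of them at 33.3% from 6 reads and the others at 0%, and 1 more control at 0%.

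The other 4 hairpins did not pass after adjustment. miR-463 had a 5p share of 77.3% ± 9.06 at EGME0 (n = 9) and 57.0% ± 23.97 at EGME75 (n = 6), a difference of -20.3 points (exact permutation, adjusted p = 0.165). With at least 20 reads per library, 4 libraries remained at EGME75 and the difference of -23.7 points was called (exact permutation, adjusted p = 0.0294). miR-871 went from 71.0% ± 21.6 (n = 7) to 47.7% ± 5.51 (n = 5), a difference of -23.3 points (exact permutation, adjusted p = 0.165). miR-743b differed by -16.3 points (exact permutation, adjusted p = 0.216) and miR-742, with 3 libraries at EGME75, by -11.4 points (exact permutation, adjusted p = 0.525). The tests of miR-463, miR-743a and miR-871 at EGME75 were among 5 of 7 hairpins (71.4%) with an unadjusted p under 0.05. The 5p share fell in those named, while in the others, miR-34b and miR-34c, it rose by 9.17 and 19.5 points.

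**Figure D5:**
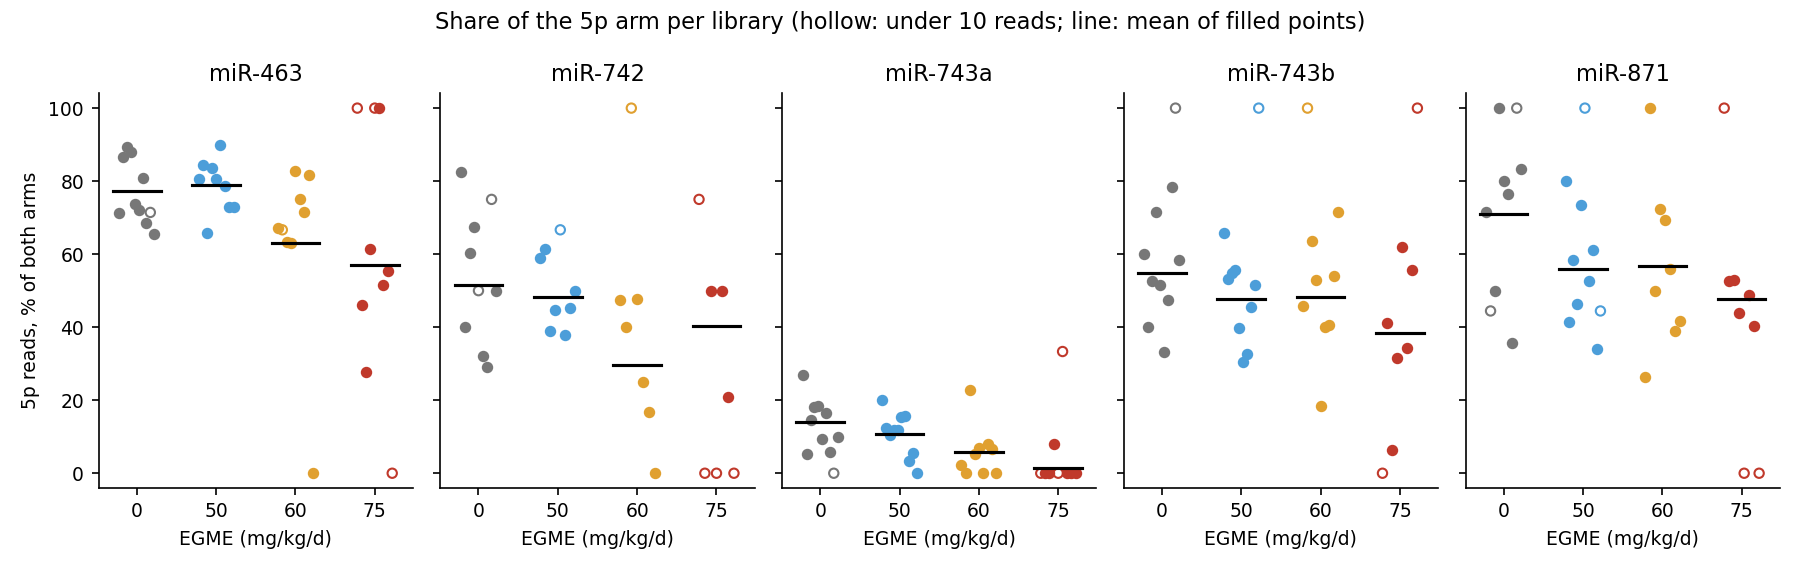
Percent of the reads of both arms that came from the 5p arm, per library and EGME dose, for the 5 hairpins; hollow points had under 10 reads and lines are means of the filled points. For miR-743a the mean goes from 13.9% at EGME0 to 1.32% at EGME75, while for miR-742 it is lowest at EGME60. The EGME75 mean of miR-742 rests on 3 libraries. Its reads pooled over all libraries gave 38.1% at EGME60 and 32.1% at EGME75.

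Other miRNAs of the same stretch of the X chromosome gave a point of comparison. Of 24 names listed, 18 were in the table and 6 passed the filter, all 3p arms or, for miR-878, an entry with no arm given. miR-741-3p, the most abundant of them, went from a mean of 30554 CPM at EGME0 to 13194 at EGME75 and fell with a log2 fold change of -1.16 (SE 0.31, edgeR adjusted p = 0.00163). The other 5 were not called at EGME75: miR-883-3p had -0.64, miR-471-3p -0.46, miR-465-3p -0.38, miR-880-3p -0.16 and miR-878 0.11. So 1 of 6 neighbours and 3 of 10 arms were called at EGME75, both below the background of 42.9%.

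The other miRNAs most like each arm, leaving out the 10 arms themselves, were ranked by Spearman's rho of log2 CPM over the 39 libraries, which share their dose groups and depth. miR-743a-5p was most like miR-151-5p (rho = 0.80, Pearson's r = 0.58), and the p of each, 1e-05, is the smallest that the permutations can give. Adjusted over 1040 pairs, these were 0.000335 and 0.000274. Without the 2 libraries farthest from the median r was 0.58, and with the dose group means removed it was 0.37. miR-743a-5p was next most like miR-20a-5p (rho = 0.77, r = 0.63) and its X-linked neighbour miR-741-3p (rho = 0.77, r = 0.55). With the dose group means removed these r were 0.41 and 0.38. miR-871-3p was most like miR-29a-3p (rho = 0.67, r = 0.52), miR-221-3p (rho = 0.64, r = 0.64) and miR-652-3p (rho = 0.64, r = 0.61). Here r with the dose group means removed was 0.51, 0.58 and 0.60. miR-743b-5p was most like miR-7a-5p (rho = 0.74, r = 0.69), miR-34b-3p (rho = 0.71, r = 0.66) and miR-34c-3p (rho = 0.68, r = 0.68). For these r with the dose group means removed was 0.52, 0.43 and 0.47.

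The uncalled arms were ranked in the same way against miRNAs outside the 10, and pairs of arms, some with a higher rho, follow after these. miR-743b-3p was most like miR-34c-5p (rho = 0.77, r = 0.71), miR-151-5p (rho = 0.70, r = 0.54) and miR-30e-5p (rho = 0.66, r = 0.70). miR-742-5p was most like miR-128-3p (rho = 0.73, r = 0.70), miR-449a-5p (rho = 0.62, r = 0.53) and miR-880-3p (rho = 0.60, r = 0.72). miR-463-5p was most like miR-7a-5p (rho = 0.70, r = 0.52), miR-3580-3p (rho = 0.61, r = 0.42) and miR-19a-3p (rho = 0.61, r = 0.46). miR-463-3p followed miR-878 (rho = 0.60, r = 0.78), miR-34b-5p (rho = 0.53, r = 0.70) and miR-880-3p (rho = 0.45, r = 0.61). The abundant miR-743a-3p had miR-19b-3p first (rho = 0.51, r = 0.84), but r was 0.46 without the 2 farthest libraries and the relation did not pass with miRNA totals as the scaling (rho = 0.31, permutation adjusted p = 0.170). Its next were miR-449a-5p (rho = 0.49, r = 0.80) and miR-880-3p (rho = 0.48, r = 0.46). miR-742-3p had miR-34c-5p (rho = 0.51, r = 0.62), miR-449a-5p (rho = 0.50, r = 0.50) and miR-29a-3p (rho = 0.48, r = 0.50), and miR-871-5p had miR-22-3p (rho = 0.49, r = 0.57), miR-10b-5p (rho = 0.46, r = 0.44) and miR-21-5p (rho = 0.40, r = 0.62). Permutation p-values adjusted over the 1040 pairs were at most 0.0469 for rho in these pairs; with miRNA totals miR-463-5p with miR-3580-3p (rho = 0.38) and miR-743a-3p with miR-449a-5p (rho = 0.26) did not pass either.

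Among the 10 arms themselves, the highest rho was between the 5p arms of miR-743a and miR-743b (rho = 0.73, r = 0.65, permutation adjusted p = 0.000335 for rho), followed by miR-463-3p and miR-743a-3p (rho = 0.71, r = 0.71). The 2 arms of 1 hairpin were less alike: rho was 0.49 for miR-743b, 0.30 for miR-742, 0.28 for miR-743a, 0.27 for miR-871 and -0.06 for miR-463. Of these 5 pairs, miR-743b passed the permutation test after adjustment (p = 0.00903 for rho) and the other 4 did not for rho. Over all 45 pairs of arms rho ranged from -0.34 to 0.73 with a median of 0.27, and 13 pairs passed. Of the 950 pairs of an arm with a miRNA outside the 10, 250 passed. Their rho ranged from -0.75 to 0.80 with a median of 0.09. No test compared the 2 sets of pairs.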

How the data were processed

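Small RNA of sperm from 39 males was sequenced from 10 ng of RNA on 13 chips over which the dose groups were mixed, per the labels. The authors deposited whole-number read counts per mature miRNA; the submitters' processing notes name FastQC, Bowtie and DESeq2, and the build and the treatment of multiply matching reads are not given in the sources used here. All columns matched a sample. Counts were tested with edgeR 4.0.16 (limma 3.58.1, R 4.3.3): trimmed mean of M-values scaling (factors 0.674 to 2.21), filterByExpr by group (105 of 405 miRNAs, 97.1% of counts), robust quasi-likelihood tests with 1 level per dose over all libraries, a slope on dose given per 75 mg/kg/d, and Benjamini-Hochberg adjustment over all 105. DESeq2 1.42.0 and limma-voom were alternatives. Arm shares and correlations used permutation tests (exact below 10 libraries a group, otherwise 100000 permutations) with scipy 1.17.1. The fitting script was tested on simulated data. All 10 arms were named, with the tested X-linked neighbours and the 3 miRNAs most like each arm. Members and lists were chosen with earlier results of these data known. Intervals cover the spread between males.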

Additional observations from a re-analysis of the deposited data

Results flagged for a closer look

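Each arm was checked in each dose group for a library whose log2 CPM lay far from the others by Dixon's test. For normally distributed values that test flags about 1 in 20 groups by chance. This rate need not hold here, where all counts of 0 take the same log2 CPM. Of 40 groups 6 held such a library, and in each it was a library with a count of 0, listed at a log2 CPM of 7.35. For miR-463-5p these were EGME50 replicate 36 (group median 12.0) and EGME60 replicate 38 (group median 11.6). For miR-743b-3p they were EGME50 replicate 36 (group median 11.5) and EGME0 replicate 33 (group median 11.6). For miR-743a-3p it was EGME75 replicate 24, which held 139 miRNA counts, and for miR-871-5p EGME60 replicate 6, which held 1990. EGME50 replicate 36 and EGME0 replicate 33 held 1681 and 1098 miRNA counts, and EGME60 replicate 38, with 6049, held the most of these libraries.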

How the results depend on the processing

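The counts of called arms were recomputed under 15 other settings and leaving out each library. Of these settings 1, a single row per set of identical rows, dropped none of the 105 tested miRNAs and repeated the main fit. A variant of the trimmed-mean factors (TMMwsp) gave nearly the same values as the main fit. Both are counted in the tallies of settings. At EGME60 edgeR called 0 arms in the main fit. The arm miR-871-3p alone was called, higher, with miRNA totals, the depth covariate or libraries of at least 1000 or 4000 counts. All miRNAs called there were 39 of 105, 38 of 105, 36 of 114 and 56 of 121. DESeq2 or chip as a fixed term called 1 arm (miR-743a-5p, lower), beside 41 and 28 of all 105. With limma-voom 3 arms were called without or with chip as a random block, beside 39 and 43 of all 105. At EGME75 the 3 calls became 5, all lower, with the summed counts of 4 tables as library size. In that setting 42 of all 105 miRNAs were called, 39 of them lower. With only the 2 groups compared there was 1 call, beside 32 of the 64 miRNAs tested. There miR-743a-5p and miR-871-3p were not tested because fewer miRNAs passed the filter. For the slope the 3 calls became 1 with 4-table sizes (miR-743a-5p) or the depth covariate (miR-871-3p), beside 22 and 37 of all 105. They became 5 with limma-voom, with or without the random block, beside 58 of all 105 in each. For EGME75 against EGME50 the 1 call became 0 with miRNA totals, the depth covariate, or libraries of at least 1000 counts. All miRNAs called there were 13 of 105, 10 of 105 and 16 of 114. With 4-table sizes 4 arms were called, all lower, beside 42 of all 105, also all lower. There were 0 calls with only the 2 groups compared, beside 20 of 70 miRNAs. miR-743a-5p, the arm called in the main fit, was not among the 4 arms tested there. Leaving out 1 library gave 0 to 2 calls at EGME60, 2 to 4 at EGME75, 3 to 4 for the slope and 0 to 1 for EGME75 against EGME50, and 0 calls at EGME50 and for EGME75 against EGME60. miR-743a-5p at EGME75 passed in 14 of 14 settings that tested it and 39 of 39 fits without 1 library, miR-871-3p in 13 of 14 and 39 of 39, and miR-743b-5p in 12 of 15 and 38 of 39. The median of all miRNAs at EGME75 was -0.10 with trimmed means, 0.49 with miRNA totals and -1.13 with 4-table sizes; relative to it miR-743a-5p stood at -2.94, -3.02 and -3.31 and miR-743b-5p at -1.22, -1.22 and -1.10. The arm share of miR-463 at EGME75 was called at a minimum of 20 reads (-23.7 points), and that of miR-743a was lost at a minimum of 1 read (-7.93 points). Where not named, the cause was not tested. No paired analysis was possible because each replicate number belonged to 1 male of 1 group.

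Signs changed in 71 log2 fold changes under other settings and in 69 without 1 library, and 0 of these were called in either fit. With miRNA totals these were at EGME50 miR-743a-3p 0.0082, miR-743b-3p 0.047 and miR-871-5p 0.22, at EGME60 miR-742-3p 0.27 and miR-743a-3p 0.27, at EGME75 miR-743a-3p 0.19, for the slope miR-743a-3p 0.21, at EGME75 against EGME60 miR-463-3p 0.19 and miR-743b-3p 0.21, at EGME75 against EGME50 miR-743a-3p 0.18. With 4-table sizes these were at EGME50 miR-743b-3p 0.15 and miR-871-5p 0.034, at EGME60 miR-463-3p -0.13 and miR-871-5p -0.12, at EGME75 miR-463-3p -0.76, miR-742-3p -0.49 and miR-871-5p -0.71, for the slope miR-463-3p -0.55, miR-742-3p -0.49 and miR-871-5p -0.48, at EGME75 against EGME60 miR-742-5p -0.91 and miR-871-5p -0.59, at EGME75 against EGME50 miR-463-3p -0.59, miR-742-3p -0.44, miR-871-3p -0.23 and miR-871-5p -0.74. With limma-voom these were at EGME50 miR-871-5p 0.11, for the slope miR-463-3p -0.017, at EGME75 against EGME60 miR-463-3p 0.0038. With chip as a fixed term these were at EGME50 miR-871-5p 0.089, at EGME60 miR-463-3p -0.12 and miR-871-5p -0.027, at EGME75 miR-463-3p -0.10 and miR-871-5p -0.060, for the slope miR-463-3p -0.19, miR-742-3p -0.20 and miR-871-5p -0.023, at EGME75 against EGME60 miR-463-3p 0.027 and miR-871-5p -0.033, at EGME75 against EGME50 miR-871-5p -0.15. With chip as a random block in limma-voom these were at EGME50 miR-871-5p 0.10, for the slope miR-463-3p -0.027 and miR-742-3p -0.010, at EGME75 against EGME60 miR-463-3p 0.014. With RLE factors these were at EGME60 miR-871-5p -0.088, at EGME75 against EGME60 miR-463-3p 0.091 and miR-743b-3p 0.18, at EGME75 against EGME50 miR-743a-3p 0.0053. With DESeq2 these were at EGME60 miR-871-5p -0.088, at EGME75 against EGME60 miR-463-3p 0.15 and miR-743b-3p 0.19, at EGME75 against EGME50 miR-743a-3p 0.013. In libraries of at least 1000 counts these were at EGME60 miR-743a-3p 0.0041, at EGME75 against EGME60 miR-463-3p 0.34 and miR-743b-3p 0.26, at EGME75 against EGME50 miR-743a-3p 0.12. With only the 2 groups compared these were at EGME60 miR-743a-3p 0.081. With the depth covariate these were at EGME75 miR-743b-3p 0.47, at EGME75 against EGME60 miR-463-3p 0.23 and miR-743b-3p 0.90, at EGME75 against EGME50 miR-742-5p 0.086 and miR-743b-3p 0.69. In libraries of at least 4000 counts these were at EGME75 miR-743a-3p 0.0077, at EGME75 against EGME60 miR-463-3p 0.40, miR-743a-3p 0.12 and miR-743b-3p 0.25, at EGME75 against EGME50 miR-742-5p 0.051 and miR-743a-3p 0.23. With no filter these were at EGME75 against EGME60 miR-742-5p -0.091. At a mean of at least 10 counts these were at EGME75 against EGME60 miR-463-3p 0.0031 and miR-743b-3p 0.0012. Without 1 library 11 results changed sign in 1 fit or more. Their ranges over all such fits follow, with the number of fits of changed sign in parentheses. For miR-463-3p these were -0.015 to 0.47 at EGME75 (1), -0.16 to 0.22 at EGME75 against EGME60 (17) and -0.011 to 0.34 for the slope (1). For miR-742-3p the range was -0.66 to 0.10 at EGME60 (5), and for miR-742-5p -0.095 to 0.51 at EGME75 against EGME60 (5). For miR-743a-3p these were -0.28 to 0.078 at EGME60 (6), -0.36 to 0.042 at EGME75 against EGME50 (2) and -0.45 to 0.0030 at EGME75 against EGME60 (1). For miR-743b-3p the range was -0.32 to 0.19 at EGME75 against EGME60 (20). For miR-871-5p these were -0.20 to 0.12 at EGME50 (10) and -0.0079 to 0.30 at EGME60 (1).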
